A study of Mus musculus with 6 samples.

Results

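The family of miR-148 and miR-152 comprises the microRNAs made from the hairpins of miR-148a, miR-148b and miR-152. Its members were taken by name from the liver read-count table as both mature arms of each hairpin, which gave 6 of the 1907 mature microRNAs listed. All 6 members had reads in every library and all 6 entered the tests, which were run on 437 microRNAs that reached 4 reads in 3 or more libraries. Livers came from 6 male mice of mixed background, labelled as 12 weeks old. For 4 weeks, 3 were fed granulated regular chow and 3 a chow of 75% regular food and 25% soy bean powder. RNA was taken from whole liver, so fewer cells of a type and less RNA per cell cannot be told apart.

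MicroRNAs are cut from hairpin RNAs as a duplex of a 5p and a 3p arm, and the arm retained by an Argonaute protein guides it to messenger RNAs through its seed, bases 2 to 8 of the mature sequence. The 3p arms of this family are the usual guides. miR-148a is abundant in hepatocytes, where it lowers the LDL receptor and the cholesterol exporter ABCA1, and members of the family repress the DNA methyltransferase DNMT1. miR-148a is also abundant in pancreatic acinar tissue. miR-148b and miR-152 lie within the genes for the zeta subunits of the COPI vesicle coat. No messenger RNA of these livers was used here.

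The mature sequences are shown because the 3p arms of this family carry the same seed and differ by few bases. They are RefSeq sequences on GRCm38.p6, written 5′ to 3′ with the seed in capitals, and all 6 members matched an entry.
mmu-miR-148a-3p: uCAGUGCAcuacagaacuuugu
mmu-miR-148b-3p: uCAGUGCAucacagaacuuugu
mmu-miR-152-3p: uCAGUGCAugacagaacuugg
mmu-miR-148a-5p: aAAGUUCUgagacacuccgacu
mmu-miR-148b-5p: gAAGUUCUguuauacacucaggcu
mmu-miR-152-5p: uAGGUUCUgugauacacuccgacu

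All 3p arms held the seed CAGUGCA, and no other microRNA among the 1623 of the table with a RefSeq mature sequence held it. Counted from 1 at the 5′ end and without gaps, miR-148a-3p and miR-148b-3p differed at 2 of 22 bases (C9U and U10C, with miR-148a-3p given first). miR-148a-3p and miR-152-3p differed at 3 of 21 bases (C9U, U10G and U20G). The seed AAGUUCU was shared by miR-148a-5p and miR-148b-5p alone, whereas miR-152-5p held AGGUUCU, with A3G relative to miR-148a-5p. The differences between the guides thus lay outside the seed, and a read of miR-148b-3p is told from a read of miR-148a-3p by 2 neighbouring bases. How the authors assigned reads with mismatches is not given in the sources used here.

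The family was dominated by a single arm. mmu-miR-148a-3p was the third most abundant microRNA in each of the 6 libraries, and it made up 99.74% to 99.87% of the reads of the 3p arms. In regular livers it stood at 94756 ± 17731 CPM (reads per 1000000 of the TMM-scaled library size, SD, n = 3), followed by mmu-miR-148a-5p at 732.0 ± 153 CPM and mmu-miR-148b-3p at 126.8 ± 7.29 CPM. mmu-miR-152-5p at 58.3 ± 6.72 CPM, mmu-miR-148b-5p at 39.2 ± 12.2 CPM and mmu-miR-152-3p at 13.4 ± 4.5 CPM were the lowest. The mean levels in soy livers followed the same order. The neighbours miR-152-5p and miR-148b-5p were not separated by their spread, since miR-148b-5p was the higher of the pair in soy replicate 3 (41.5 against 36.8 CPM). These are levels of reads and not counts of RNA molecules, and the parts of adapter ligation and amplification in the differences between arms were not tested.

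**Figure D1:**
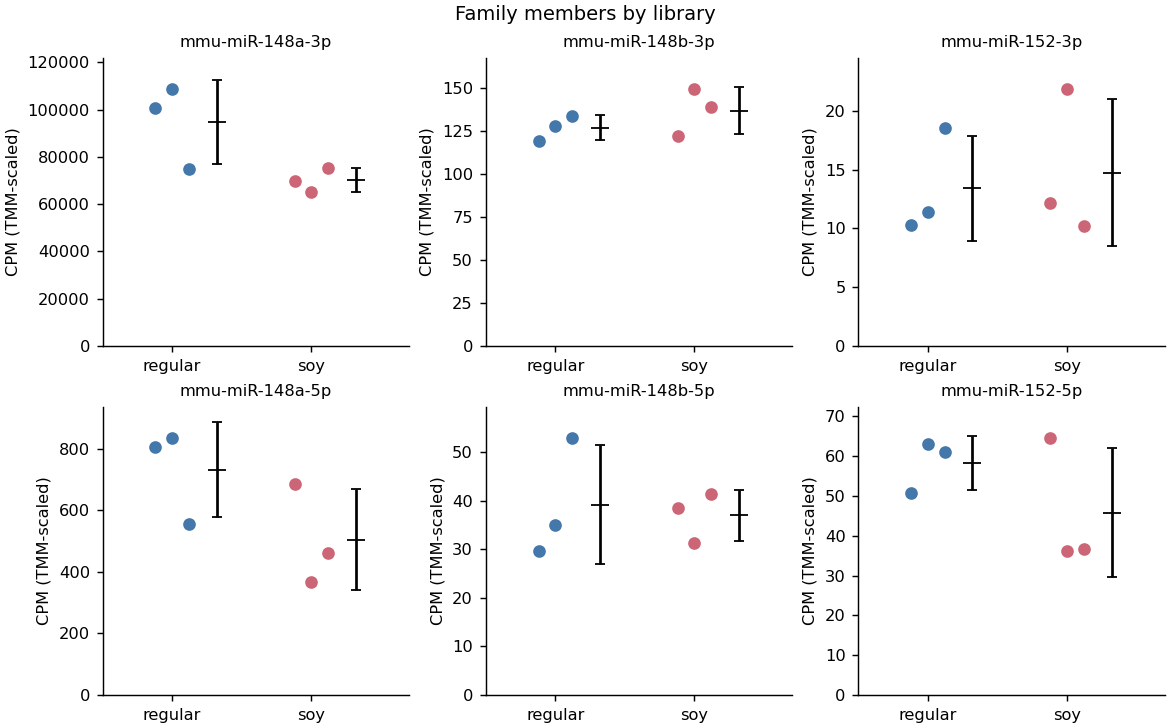
Level of each of the 6 members in CPM (linear axes from 0, a different scale in each panel) by diet, with a point per library and the mean ± SD of 3 libraries in black. miR-148a-3p was at 74817 to 108750 CPM in regular and 65145 to 75198 CPM in soy livers, and the groups overlapped for all 6 members.

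By the diet labels, the mean of mmu-miR-148a-3p was lower in soy than in regular livers, without passing the test. Its reads numbered 1030245, 1088151 and 467552 in regular replicates 1 to 3 and 858472, 654746 and 750758 in soy replicates 1 to 3. Relative to library size these were 100702, 108750 and 74817 CPM in regular and 69822, 65145 and 75198 CPM in soy livers. Regular replicates 1 and 2 stood above all others, and regular replicate 3, the shallowest library, lay just under soy replicate 3, so the groups overlapped. The log2 fold change was -0.44 ± 0.15 (SE), a ratio of soy to regular of 0.739 with a 95% interval of 0.582 to 0.939 before adjustment, and the adjusted p was 0.728. Without regular replicate 2 the log2 fold change was -0.26, and without regular replicate 3 it was -0.52.

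Counting error was small beside the differences between libraries. Measured as a share of all microRNA reads, miR-148a-3p took 10.06%, 10.54% and 8.163% in regular and 6.726%, 6.527% and 7.378% in soy libraries. In regular replicate 3 the exact 95% binomial interval was 8.141% to 8.186% and in soy replicate 3 it was 7.362% to 7.394%, which covers counting error only. By total reads the groups therefore did not overlap, and by TMM scaling, where the factor of regular replicate 3 was 1.091 and the others were 0.963 to 1.002, they did. Non-overlapping groups lower in soy by total reads were found for 5.95% of the microRNAs tested, and non-overlapping groups in either direction by TMM-scaled CPM for 12.8%.

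The 3p arms summed, that is, the reads of the members with the seed CAGUGCA, gave nearly the same values as miR-148a-3p. They took 9.60% ± 1.25 (SD, n = 3) of the reads in regular and 6.89% ± 0.445 in soy libraries, a difference of -2.71 percentage points (exact permutation p = 0.1, two-sided, the smallest p that 3 against 3 allows). Every soy library lay below every regular library. Over the 7 shares and arm ratios of the family tested in this way, the Benjamini-Hochberg value was 0.6 for each. With a library left out, the difference ranged from -3.42 to -2.23 percentage points.

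**Figure D2:**
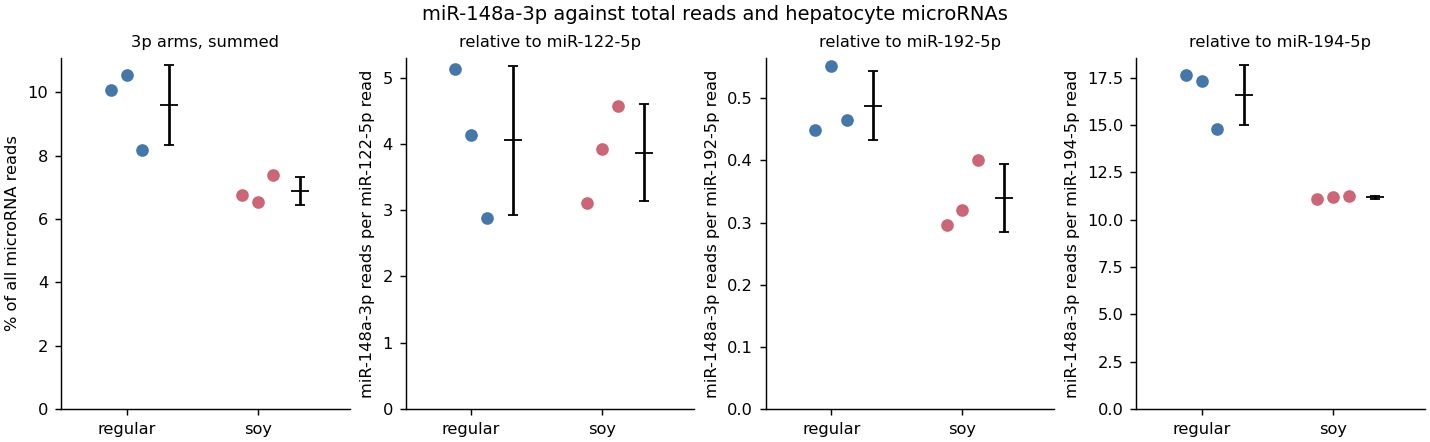
Share of all microRNA reads taken by the summed 3p arms (percent), and miR-148a-3p reads per read of 3 hepatocyte microRNAs, by diet on linear axes from 0. Points are libraries and black bars the mean ± SD of 3. The groups separate for the share of reads and relative to miR-192-5p and miR-194-5p, and they overlap relative to miR-122-5p.

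Against other hepatocyte microRNAs in the same library, the difference depended on the partner. These ratios were chosen after seeing the data, and how often ratios of other microRNAs separate was not counted. The log2 fold changes of the partners themselves were 0.14 for miR-194-5p, 0.11 for miR-192-5p and -0.37 for miR-122-5p, and they enter the ratios. For each read of miR-194-5p, made with miR-192 in liver and gut epithelium, there were 17.7, 17.4 and 14.8 reads of miR-148a-3p in regular livers and 11.1, 11.2 and 11.3 in soy livers. Soy livers thus lay within a narrow range below all regular livers. For each read of miR-192-5p there were 0.449 to 0.551 reads in regular and 0.296 to 0.401 in soy livers, again without overlap. For each read of miR-122-5p, the microRNA that marks hepatocytes, there were 2.89 to 5.14 reads in regular and 3.11 to 4.58 in soy livers, and the groups overlapped. As mean log2 ratios, the differences between the diets were -0.56 to miR-194-5p, -0.53 to miR-192-5p (exact permutation p = 0.1 for each) and -0.046 to miR-122-5p (exact permutation p = 0.9), and over these 3 ratios the smallest Benjamini-Hochberg value was 0.15.

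The remaining guides had higher means in soy livers, within the spread between mice. mmu-miR-148b-3p, made from an intron of Copz1, had 1220, 1276 and 836 reads in regular and 1501, 1501 and 1387 reads in soy libraries. Relative to library size it stood at 119.3, 127.5 and 133.8 CPM and at 122.1, 149.3 and 138.9 CPM. Its coefficient of variation was 5.74% in regular livers, the lowest of the members there, and 10.1% in soy livers, where that of miR-148a-3p was lower at 7.18%. Soy replicate 1 lay inside the regular range. Its log2 fold change was 0.11 ± 0.20 (SE), with a 95% interval of -0.33 to 0.55, and it ranged from 0.09 to 0.22 with a library left out.

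mmu-miR-152-3p, from the Copz2 gene, was the least abundant member. It had 105, 114 and 116 reads in regular and 150, 220 and 102 reads in soy libraries, or 10.3, 11.4 and 18.6 CPM and 12.2, 21.9 and 10.2 CPM. A single library in each group, regular replicate 3 and soy replicate 2, stood well above the other libraries. The log2 fold change of 0.14 ± 0.44 (SE) had a 95% interval of -0.85 to 1.14, and it was -0.20 without soy replicate 2 and 0.52 without regular replicate 3.

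Relative to the dominant guide, the minor guides took a larger mean share in soy livers. There were 1.18, 1.17 and 1.79 reads of miR-148b-3p per 1000 reads of miR-148a-3p in regular livers and 1.75, 2.29 and 1.85 in soy livers. Soy replicate 1 fell just inside the regular range. The miR-148b-3p share of the 3p arms was 0.138% ± 0.0351 (SD, n = 3) in regular and 0.196% ± 0.0288 in soy libraries (exact permutation p = 0.2). That of miR-152-3p was 0.0151% ± 0.00834 and 0.0215% ± 0.0106 (exact permutation p = 0.5), and that of miR-148a-3p was 99.85% ± 0.0434 and 99.78% ± 0.0389 (exact permutation p = 0.3). The ratio of miR-148b-3p to miR-148a-3p was thus not the same in all libraries. The part of misassigned miR-148a-3p reads in the counts of miR-148b-3p was not tested.

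Among the 5p arms, mmu-miR-148a-5p followed its guide most closely. It had 8241, 8354 and 3472 reads in regular and 8425, 3678 and 4597 reads in soy libraries, or 805.5, 834.9 and 555.6 CPM and 685.2, 365.9 and 460.4 CPM. Regular replicate 3 was the lowest regular library and soy replicate 1 the highest soy library, with the latter above the former. The log2 fold change was -0.54 ± 0.26 (SE; adjusted p = 0.941), and it ranged from -0.82 without soy replicate 1 to -0.30 without soy replicate 2.

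mmu-miR-152-5p, the more abundant arm of its hairpin here, had 518, 632 and 382 reads in regular and 794, 364 and 367 reads in soy libraries. In CPM these were 50.6, 63.2 and 61.1 against 64.6, 36.2 and 36.8, so that soy replicate 1 was the highest of all 6 libraries and the other soy libraries were the lowest. The log2 fold change was -0.35 ± 0.29 (SE; 95% interval -0.99 to 0.30), and it was -0.68 without soy replicate 1 and -0.14 without soy replicate 2. Soy replicate 1 also had the highest soy level of miR-148a-5p, although not of miR-148a-3p.

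mmu-miR-148b-5p had 303, 351 and 331 reads in regular and 473, 314 and 414 reads in soy libraries, or 29.6, 35.1 and 53.0 CPM and 38.5, 31.2 and 41.5 CPM. Its highest level was in regular replicate 3, and the soy libraries lay inside the regular range. The log2 fold change was -0.08 ± 0.30 (SE; 95% interval -0.75 to 0.59), and its sign turned without regular replicate 3 (0.26) or soy replicate 2 (0.08).

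None of the members passed the test between the diets. Over all 437 microRNAs, edgeR's quasi-likelihood test with Benjamini-Hochberg adjustment called 0 of the 6 members (0% called in the whole table), with adjusted p of 0.728 for miR-148a-3p, 0.941 for miR-148a-5p and 0.982 for each of the rest. DESeq2 also called 0 members (0.458% called in the whole table), as did limma, both with voom weights and on the authors' log2 values. At an unadjusted p under 0.05, edgeR gave 1 member, miR-148a-3p, against 5.03% of the microRNAs tested. DESeq2 gave 1 member against 5.49%, limma-voom 2 members against 6.18%, and limma on the log2 values 0 members against 8.24%. The values of 4 members were lower and of 2 higher in soy. Their median was -0.21 on the log2 scale, beside -0.02 over all microRNAs tested, of which 51.5% were lower.

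**Figure D3:**
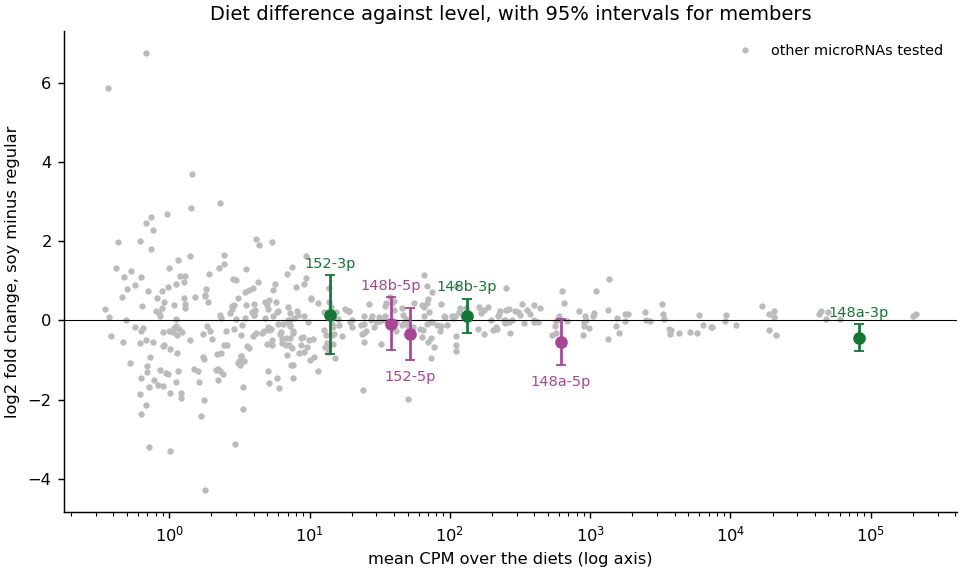
Log2 fold change (soy minus regular) against mean CPM on a log axis for the 437 microRNAs tested, with the 3p arms in green and the 5p arms in purple and their 95% intervals before adjustment. miR-148a-3p at -0.44 has the narrowest interval of the members, and the other 5 intervals include 0.

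Among abundant microRNAs, miR-148a-3p had the lowest value. Of 15 microRNAs with a mean of at least 10000 CPM, 4 had a negative log2 fold change, and the range was -0.44 for miR-148a-3p to 0.37 for miR-126a-5p. Its p was the 11th smallest of the 437 tested.

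**Figure D4:**
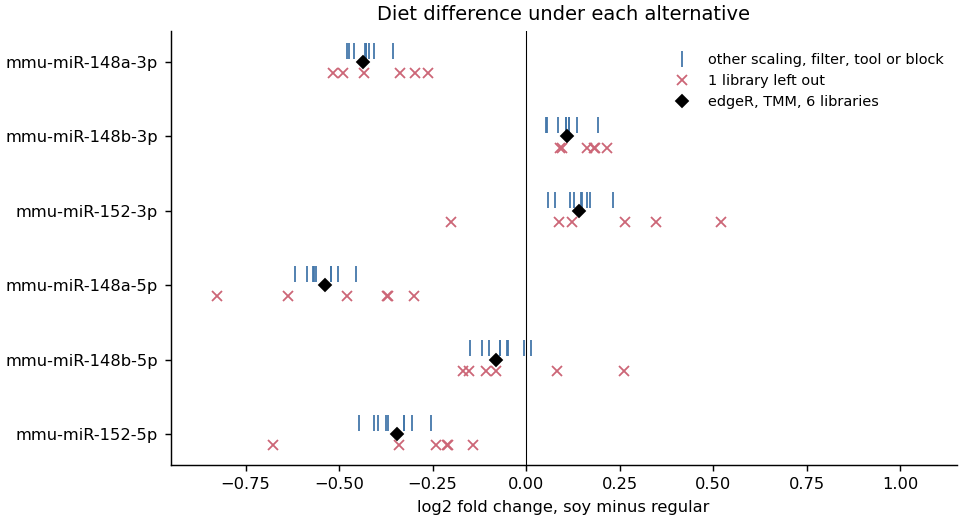
Log2 fold change (soy minus regular) of each member by edgeR with TMM scaling (black), under other scalings, filters, tools or the replicate block (blue), and with 1 library left out (red). miR-148a-3p, miR-148a-5p and miR-152-5p stayed below 0 and miR-148b-3p above 0 in all of these, and miR-152-3p and miR-148b-5p lay on both sides.

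The hairpins are shown because the arms of the family are used unequally. They are the RefSeq hairpins on GRCm38.p6, written 5′ to 3′, with the 5p arm and then the 3p arm in capitals.
Mir148a: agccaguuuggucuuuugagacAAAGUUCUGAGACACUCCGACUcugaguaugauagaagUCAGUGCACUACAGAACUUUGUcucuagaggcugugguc
Mir148b: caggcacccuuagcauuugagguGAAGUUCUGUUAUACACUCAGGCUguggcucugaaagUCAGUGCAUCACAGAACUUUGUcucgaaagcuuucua
Mir152: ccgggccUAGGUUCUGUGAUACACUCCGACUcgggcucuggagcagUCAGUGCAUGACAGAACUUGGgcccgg

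The Mir148a hairpin lies at chr6:51269812-51269910 on the minus strand, and no other gene of GENCODE M21 (GRCm38) overlaps it. The Mir148b hairpin lies at chr15:103285125-103285221 on the plus strand within Copz1, and Mir152 at chr11:96850393-96850465 on the plus strand within Copz2. Neither overlaps an annotated exon of its host gene. The family thus comes from separate chromosomes and not from a cluster.

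Arm use differed between the hairpins. The 3p arm took 99.03% to 99.44% of the reads of miR-148a, with 101.9 to 178.0 reads of the 3p arm per read of the 5p arm. Of the reads of miR-148b, 71.6% to 82.7% were on the 3p arm. For miR-152, the 3p arm took 15.3% to 37.7%, so that the 5p arm, usually discarded, held most reads in every library. Soy replicate 2 had the highest 3p share for each of the 3 hairpins. Over 118 hairpin names with both arms tested, 52 had more reads on the 3p arm, and the median absolute log2 ratio of the arms was 3.97, beside a mean log2 ratio of 3p to 5p of 7.09 for miR-148a, 1.81 for miR-148b and -1.91 for miR-152.

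**Figure D5:**
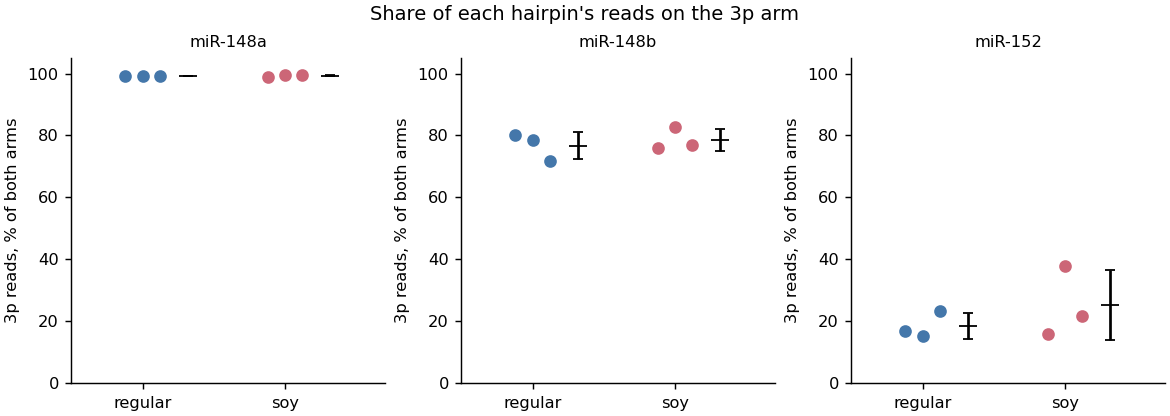
Percent of each hairpin's reads on its 3p arm, by diet, with points for libraries and the mean ± SD of 3 in black. The values are near 100% for miR-148a, 71.6% to 82.7% for miR-148b and 15.3% to 37.7% for miR-152, and the diets overlap for each.

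The diets did not separate by arm use. The log2 ratio of 3p to 5p reads was 7.02 ± 0.0537 (SD, n = 3) in regular and 7.17 ± 0.433 in soy livers for miR-148a, 1.74 ± 0.353 and 1.89 ± 0.321 for miR-148b, and -2.16 ± 0.394 and -1.66 ± 0.853 for miR-152 (exact permutation p = 0.6 for each). For miR-148a the regular livers lay close together at 125.0 to 134.7 reads of the 3p arm per read of the 5p arm, whereas the soy livers spread from 101.9 to 178.0. For miR-152 the value of soy replicate 2, at 37.7% on the 3p arm, set much of the difference, which was 0.038 without it. The groups did not overlap for 12 of the 118 hairpins (10.2%), and none of these was of the family.

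The microRNAs most like mmu-miR-148a-3p in their levels across the 6 libraries were miR-30e-3p (Pearson r = 0.876), miR-30c-5p (0.859), miR-378a-3p (0.846), miR-181a-2-3p (0.797) and miR-19b-3p (0.726), out of 106 microRNAs with a mean of at least 100 CPM outside the family. These correlations of log2 CPM are a description over 6 libraries that share the scaling and the difference between diets. All of these microRNAs had lower means in soy livers, with log2 fold changes from -0.77 for miR-181a-2-3p to -0.12 for miR-30c-5p. By the same measure the 5p arm of the same hairpin, miR-148a-5p, stood at 0.812, and miR-148b-3p and miR-152-3p, which share the seed, stood at -0.599 and -0.606.

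The minor guides had other microRNAs at the top of their lists. These too are the highest of 106 candidates over 6 libraries, so high values of r are not a test of likeness. miR-148b-3p was most like miR-215-5p (r = 0.891), miR-98-5p (0.788) and miR-186-5p (0.748), and miR-152-3p was most like miR-744-5p (0.845), miR-193a-3p (0.595) and miR-30d-5p (0.593). miR-215-5p varied far more between mice than miR-148b-3p did, with a log2 fold change of 1.06 ± 0.92 (SE). It was low in replicate 1 of both diets, at -2.64 (regular) and -2.25 (soy) from its mean log2 level, and at 0.65 to 1.77 in the other libraries. The lists for miR-148a-3p, miR-148b-3p and miR-152-3p named no microRNA in common.

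Summed hepatocyte microRNAs were abundant in every library, although miR-122-5p itself, at 16440 to 26240 CPM, ranked only 9th to 14th. The 5 hepatocyte microRNAs (both arms of miR-122 and miR-192 and miR-194-5p) summed to 192700 to 250400 CPM in regular and 211600 to 265300 CPM in soy livers, with 3 of 5 higher and 2 lower and 0 called. Most of this sum was miR-192-5p, at 161000 to 235800 CPM, and the log2 fold change of miR-122-5p was -0.37 ± 0.18 (SE; adjusted p = 0.941), beside -0.44 for miR-148a-3p. The defining acinar microRNAs of pancreas, which is rich in miR-148a, were near 0, with 0 to 10 reads of miR-216a-5p, 0 to 30 of miR-216b-5p and 0 to 56 of miR-217-5p, and the pancreas list with miR-375-3p summed to 9.78 to 66.1 CPM in regular and 13.8 to 163.3 CPM in soy livers. Libraries held 5727546 to 12762916 microRNA reads.

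Summed markers of other cell types did not overlap between the groups for 2 of 4 lists, with no test of the sums. Of the single microRNAs tested, 12.8% had non-overlapping groups in either direction by TMM-scaled CPM. How often sums of other microRNAs do so was not counted. The summed level of the 5 leukocyte microRNAs was 756.1 to 1371 CPM in regular and 1397 to 2004 CPM in soy livers, with 4 of 5 higher and 0 called, and that of the 2 endothelial microRNAs was 14480 to 17940 CPM and 20120 to 21090 CPM, with 1 of 2 higher and 0 called. Most of the endothelial sum was miR-126a-5p, at 13030 to 19130 CPM, and most of the leukocyte sum was miR-142a-5p, at 603.6 to 1710 CPM. The leukocyte microRNA that was lower was miR-142a-3p, with a log2 fold change of -0.07. The endothelial microRNA that was lower was miR-126a-3p, with a log2 fold change of -0.01. The 4 mesenchymal microRNAs at 15820 to 23680 and 18580 to 24850 CPM and the 3 erythroid microRNAs at 717.9 to 1636 and 1216 to 1255 CPM overlapped between the groups. The part of these cell types in the lower miR-148a-3p level of soy livers was not tested.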

How the data were processed

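Liver small RNA libraries (TruSeq Small RNA kit, single-end Illumina reads) were assigned to a diet by their labels. The authors deposited whole read counts per mature microRNA without normalization, and log2 values that they scaled between libraries, blank below 4 reads. For the aligner, the build and the miRBase release, nothing is given in the sources used here. Of the sample columns, 0 were left unused. In the deposited log2 values the scaling equalled a ratio of library totals rather than the DESeq2 scaling named in the methods (largest deviation 4.97e-14), so the counts were used.

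MicroRNAs with 4 reads in 3 or more libraries were tested with edgeR 4.0.16 (R 4.3.3), quasi-likelihood, TMM scaling and Benjamini-Hochberg adjustment over 437 microRNAs at 0.05. SE and 95% intervals came from the same test. Shares and arm ratios (0.5 reads added) were compared by exact permutation of the 6 libraries. Alternatives were DESeq2 1.42.0, limma 3.58.1, other scalings and filters, a replicate block and leaving out each library. Libraries of a group differed beyond counting noise (chi-square per degree of freedom of at least 253), so none was counted as a duplicate. Each library is a mouse, per the design text. The edgeR step was tested on simulated counts, with changes larger than those of the members. The permutation step was tested on short made-up sets of values.

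The members, lists and rules were chosen with earlier results of these data known. The microRNAs named are the 6 members, those sharing a seed, the 5 or 3 most correlated with each 3p arm at 100 CPM or more, and listed markers. miR-455-3p is named because the paper lists it. The abundant microRNAs of at least 10000 CPM were added after seeing the values.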

Additional observations from a re-analysis of the deposited data

How the results depend on the processing

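Under 15 alternatives for each member, 0 of the 6 members were called by any tool, scaling, filter, block or library left out. Over the whole table, edgeR without a filter called 8 of 716. The log2 fold change of miR-148a-3p ranged from -0.52 to -0.26, with adjusted p from 0.289 to 0.902, and those of miR-148a-5p, miR-152-5p and miR-148b-3p also kept their direction. The direction of miR-152-3p turned without soy replicate 2 (leaving out libraries gave -0.20 to 0.52). That of miR-148b-5p turned without a filter (0.012), and leaving out libraries gave -0.17 to 0.26. Scaled by total reads, 1 member had non-overlapping groups, miR-148a-3p, in place of 0. Of all microRNAs tested, 5.95% had non-overlapping groups lower in soy by total reads. Leaving out libraries gave arm ratio differences of -0.0102 to 0.392 for miR-148a and -0.046 to 0.29 for miR-148b, with directions that turned, and of 0.038 to 0.88 for miR-152. The cause was not tested.

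Over the microRNAs as a whole, the numbers in the labels gave no sign of pairing the libraries. Same-numbered libraries deviated together at r of -0.00916, -0.105 and -0.000711. With the number as a replicate block, edgeR called 5 of 437 microRNAs and 0 members, against 0 of 437 without it. In the block, miR-148a-3p stood at -0.42 and miR-148a-5p at -0.56 (adjusted p = 0.289 for each). Without the block, their adjusted p in edgeR was 0.728 and 0.941. The ratios to hepatocyte microRNAs were chosen after seeing the data. With 102 to 220 reads per library, miR-152-3p had the least depth of the members.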
